A study of Homo sapiens with 4 samples.

Results

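RNA polymerase I (Pol I) and RNA polymerase III (Pol III) machinery was followed as 35 genes, found by gene name in a deposited table of 24940 genes. The set holds 6 subunits particular to Pol I, 2 subunits shared by Pol I and Pol III, 6 Pol I initiation factors and 10 Pol III core subunits. It also holds 3 subunits of the initiation factor TFIIIB, the single-gene factor TFIIIA, 6 subunits of TFIIIC and the Pol III repressor MAF1. The rule is a list of gene names and uses no measured value. CD3EAP, ZNRD1 and TWISTNB are the table's names for the Pol I subunits now called POLR1G, POLR1H and POLR1F.

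All libraries came from MOLM-13, an established line of human leukaemia cells (acute myeloid leukaemia), after lentiviral infection, antibiotic selection and doxycycline treatment. The groups were a negative-control hairpin (shControl), a hairpin against BCL2 (sh-Bcl2), a hairpin against MYC (sh-c-Myc), and both hairpins together (sh-c-Myc_sh-Bcl2, referred to as the double knockdown). Each group had 1 library, so no comparison of 2 groups has a replicate check. The labels give selection with 0.5 µg/ml puromycin or 600 µg/ml G418, and 72 h of doxycycline before the Western blot, and do not say whether the cells were clones. The study asked how losing both proteins differs from losing either one.

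Pol I transcribes the repeated ribosomal DNA into the precursor of the large ribosomal RNAs. Pol III makes 5S ribosomal RNA, transfer RNAs and other short RNAs. Both enzymes share a set of subunits, but each has its own initiation factors: UBTF, RRN3 and the TBP-containing SL1 complex for Pol I, and TFIIIA, TFIIIB and TFIIIC for Pol III. MYC, a transcription factor of growing cells, is known to raise the output of both enzymes and binds the DNA word CACGTG together with its partner MAX. BCL-2 is a mitochondrial protein that blocks apoptosis and is not part of either transcription system.

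The 4 libraries held 14421558 to 15691129 counted reads. The member genes had between 23 and 5094 reads in a library, and all 35 met the filter of at least 1 CPM (counts scaled to a common library size) in 1 or more libraries. MYC RNA, the target of the c-Myc hairpin, was at 434 CPM in shControl and 364 in sh-Bcl2, against 278 with the c-Myc hairpin alone and 302 with both hairpins. The libraries with the c-Myc hairpin were therefore 1.56-fold and 1.44-fold lower than shControl, and sh-Bcl2, without it, was 1.19-fold lower. BCL2 RNA was at 120, 38.7, 112 and 44.5 CPM in the same order. All levels in CPM are scaled by TMM, a library factor that sets the bulk of genes level between libraries. Ratios carry 95% intervals for counting error only. Genes were called, higher or lower, at a ratio of at least 2-fold with an interval that excluded 1. By that rule MYC was not called in any comparison. BCL2 was called lower in each comparison of a library with the Bcl-2 hairpin to one without it.

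Among 29 member genes found in the RefSeq promoter table (GRCh38.p14), 7 had CACGTG between 250 bases before and 50 bases after the start. That is 24.1% of those members, against 7.26% of 35116 promoter windows and 8.77% of 27305 genes. The windows and genes compared were not limited to expressed or protein-coding genes, nor matched to the members in base content. The difference in share was not tested. The word reads the same on both strands. POLR1E, POLR3D, POLR3G, CRCP, BRF2 and MAF1 had no entry matched. The word is shown in capitals in the 30 bases around it for these 7 genes, because the c-Myc hairpin results below can be set beside it. Sequences are written along the gene's strand.
CD3EAP, chr19:45406614-45406643, plus strand: gccctacccctttggatcCACGTGgtctgc
POLR3A, chr10:78029533-78029562, minus strand: agaggaagcggaCACGTGggacactctacg
POLR3C, chr1:145823992-145824021, plus strand: gcccgcgtcggtCACGTGagttggccaggc
POLR3E, chr16:22297384-22297413, plus strand: cgctggggccggcccgctccccccCACGTG
GTF3C2, chr2:27356850-27356879, minus strand: ccggaccaagcaCACGTGtttaccttgtgc
GTF3C4, chr9:132669988-132670017, plus strand: ggcccgggacccCACGTGggacgcgcgagg
GTF3C6, chr6:110958552-110958581, plus strand: gtggcgagtctcCACGTGggtaccggcgct

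The first base of the word lay 12 bases before the RefSeq start in CD3EAP, 35 in POLR3A and GTF3C4, 103 in GTF3C2, 142 in GTF3C6 and 196 in POLR3C. In POLR3E it lay 1 base before the start. A match is a description of letters, not of binding.

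With the c-Myc hairpin alone, 11 of the 35 genes were called lower than in shControl and 0 were called higher. Of all 13726 genes that met the filter, 9.8% were called lower and 12.7% higher. The median log2 ratio was -0.73 over the members and -0.02 over all those genes. The counting interval lay wholly below a ratio of 1 for 28 members and spanned 1 for 7, against 37.1% of all genes wholly below 1 and 33.1% wholly above. The genes called lower were 4 Pol I subunits (POLR1A, POLR1B, POLR1E and CD3EAP), the shared subunit POLR1C, the Pol I factor UBTF, 4 Pol III subunits (POLR3B, POLR3E, POLR3G and POLR3K) and the TFIIIC subunit GTF3C6. By side, 5 of 12 genes particular to Pol I and 5 of 20 particular to Pol III were called lower. The median log2 ratio was -0.85 for the Pol I genes and -0.57 for the Pol III genes, and the difference between the sides was not tested. In bulk RNA, fewer cells that express a gene and less of its RNA per cell cannot be told apart.

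**Figure D1:**
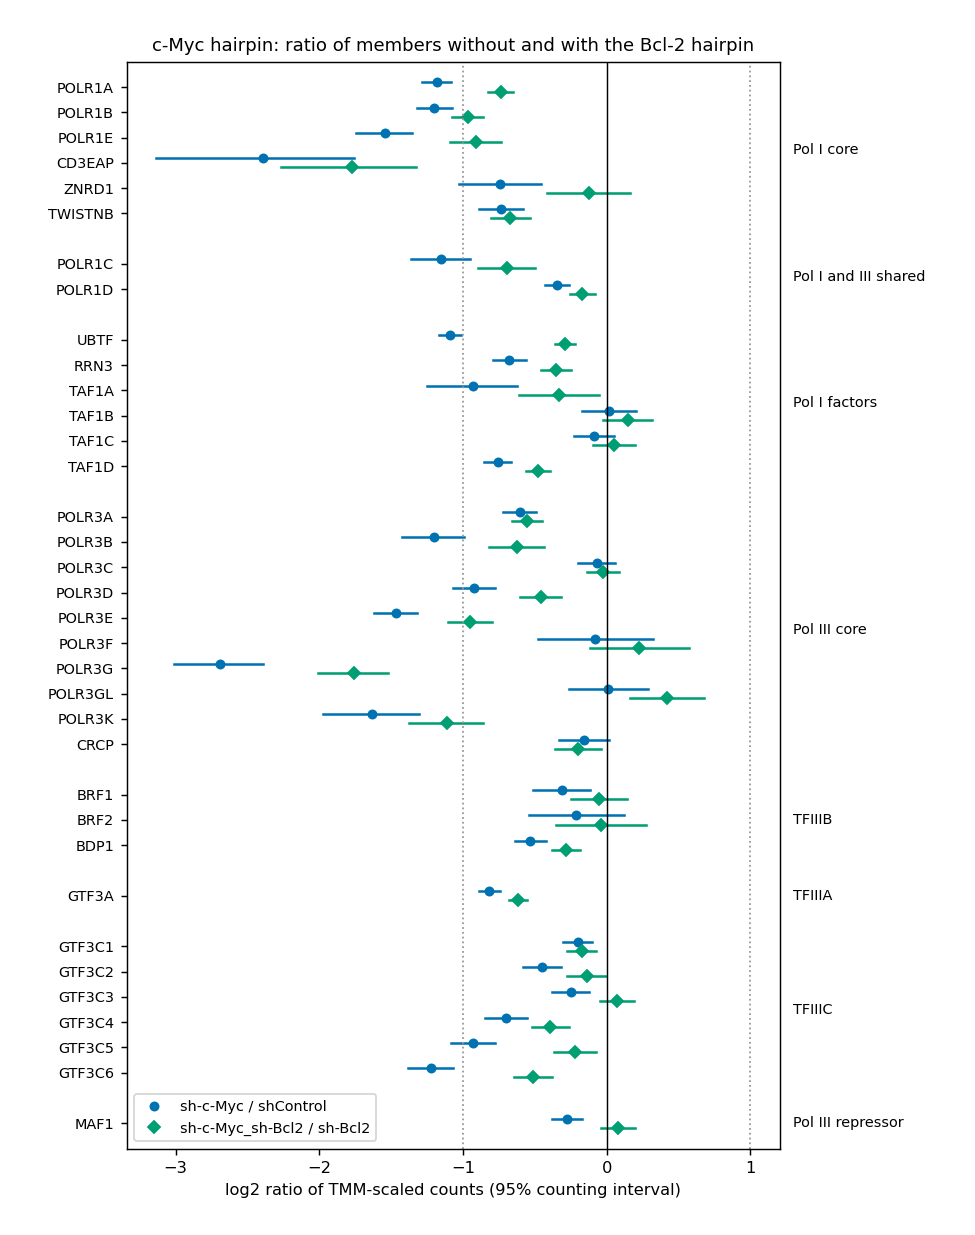
Log2 ratio of TMM-scaled counts of each of the 35 genes for the c-Myc hairpin, without the Bcl-2 hairpin (circles, sh-c-Myc over shControl) and with it (diamonds, double knockdown over sh-Bcl2). Bars are 95% counting intervals and dotted lines mark 2-fold. Most points lie left of 0, and POLR3G and CD3EAP lie farthest left in both series.

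The size of these drops depended on the scaling. Scaling by total counts instead of TMM moved the median of all genes from -0.02 to 0.17 and the members' median from -0.73 to -0.55. Under it 8 members were called lower, as POLR1A, POLR1C and UBTF were then no longer called, and over all genes the calls went from 1345 lower and 1744 higher to 911 lower and 2227 higher.

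POLR1A and POLR1B, the large subunits that form the Pol I catalytic centre, were at similar folds. POLR1A was at 182 CPM in shControl and 174 in sh-Bcl2, against 80.1 with the c-Myc hairpin alone and 105 with both hairpins. It was 2.27-fold lower (95% interval 2.12 to 2.43) in sh-c-Myc than in shControl. POLR1B was at 123, 138, 53.7 and 70.6 CPM in that order, 2.29-fold lower (2.11 to 2.50) in sh-c-Myc. For both genes the libraries with the c-Myc hairpin lay below those without it.

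POLR1E and CD3EAP encode the partner subunits that sit on the Pol I core as a dimer. POLR1E, at chr9:37485935-37503697 in GRCh38, was at 56.2 CPM in shControl and 48.6 in sh-Bcl2, against 19.2 with the c-Myc hairpin alone and 25.8 with both hairpins. CD3EAP, at chr19:45406209-45410766, was at 7.88, 11.2, 1.48 and 3.26 CPM, from 111, 170, 23 and 51 reads. Its drop in sh-c-Myc was 5.25-fold with a wide interval of 3.39 to 8.77. CD3EAP shares 45.1% of its exonic bases with ERCC1 and PPP1R13L, and reads of the shared bases cannot be told apart, with the strand setting of the count step not given in the sources used here. CD3EAP was the only member called in all 4 comparisons that involved a c-Myc hairpin library.

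ZNRD1 and TWISTNB, the small Pol I subunits of the cleavage and stalk modules, were not called. ZNRD1 was at 18.2, 13.5, 10.9 and 12.4 CPM in the same library order, with 24.5% of its exonic bases shared with other genes. TWISTNB was at 64.4, 73.7, 38.7 and 46.3 CPM, 1.66-fold lower (1.50 to 1.85) in sh-c-Myc. The shared subunits, which form the assembly platform of both enzymes, differed in size of drop. POLR1C was at 41.2, 35.7, 18.5 and 22.0 CPM, 2.22-fold lower in sh-c-Myc (1.93 to 2.57). POLR1D was at 176, 153, 139 and 136 CPM, 1.27-fold lower (1.20 to 1.35).

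Among the Pol I factors UBTF alone was called. UBTF coats the ribosomal DNA and was at 294 CPM in shControl and 237 in sh-Bcl2, against 138 with the c-Myc hairpin alone and 195 with both hairpins. It was 2.13-fold lower (2.02 to 2.25) in sh-c-Myc, and its largest level was in shControl. RRN3, which links Pol I to its promoter factors, was at 107, 108, 67.1 and 84.9 CPM, 1.60-fold lower in sh-c-Myc. Of the SL1 subunits, TAF1D was at 170, 179, 101 and 129 CPM and TAF1A at 16.7, 15.5, 8.72 and 12.3 CPM. Neither was called, with 1.69-fold for TAF1D and 1.91-fold for TAF1A in sh-c-Myc. TAF1B and TAF1C, of the same complex, had log2 ratios of 0.02 (-0.17 to 0.20) and -0.09 (-0.22 to 0.05) in sh-c-Myc. None of these 4 SL1 genes was called.

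**Figure D2:**
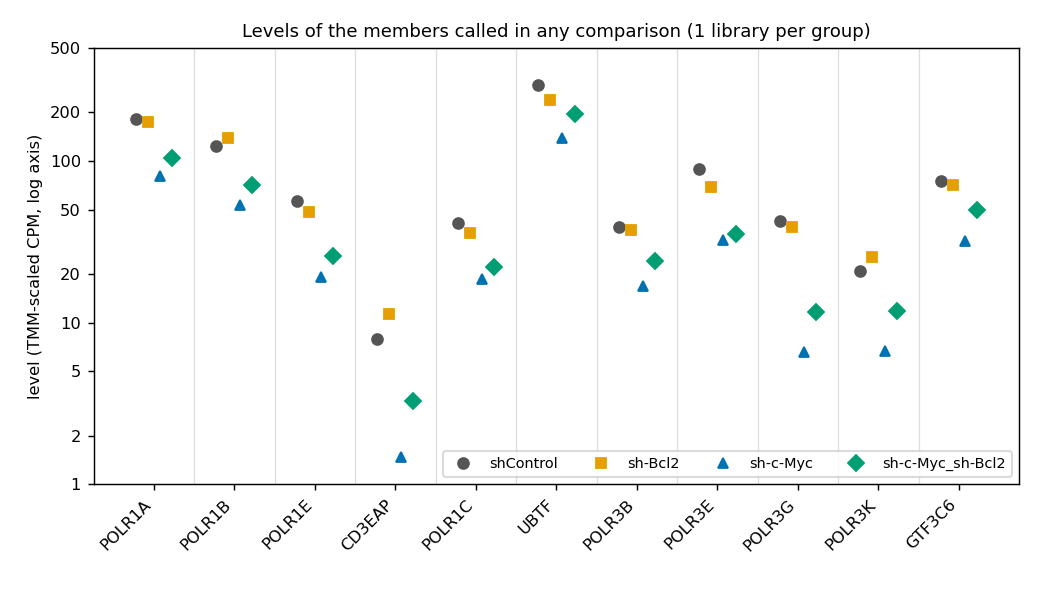
Level of the 11 genes called in any comparison, in TMM-scaled CPM on a log axis, with 1 point per library. In every gene shown the sh-c-Myc library is the lowest and the double knockdown the next lowest.

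POLR3G had the largest conservative drop of all members. It lies at chr5:90471748-90514553 and encodes a subunit of the Pol III trimer that takes part in initiation, for which cells can use either POLR3G or its paralogue POLR3GL. POLR3G was at 42.7 CPM in shControl and 39.2 in sh-Bcl2, against 6.61 with the c-Myc hairpin alone and 11.6 with both hairpins. That was 6.44-fold lower (5.24 to 8.05) in sh-c-Myc and 3.68-fold lower (3.12 to 4.38) in the double knockdown than in shControl. POLR3GL was at 14.7, 14.4, 14.8 and 19.3 CPM. Its ratio in sh-c-Myc was 1.01 (0.832 to 1.22), and it was the only member whose levels in both c-Myc hairpin libraries were above those in both other libraries.

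Set per gene length, POLR3G was at 10.1 FPKM in shControl and 9.42 in sh-Bcl2, against 1.78 with the c-Myc hairpin alone and 2.91 with both hairpins. POLR3GL was at 7.76, 7.72, 8.90 and 10.8 FPKM. The POLR3G to POLR3GL ratio was therefore 1.30 (1.11 to 1.53) and 1.22 (1.04 to 1.43) without the c-Myc hairpin, and 0.200 (0.157 to 0.253) and 0.269 (0.223 to 0.325) with it. By FPKM the order of the pair was reversed in both libraries with the c-Myc hairpin. POLR3G was called lower there against shControl, and POLR3GL was not called. Exonic bases shared with other genes made up 21.2% of POLR3GL and 6.47% of POLR3G. How reads of shared bases bear on the order of the pair was not tested. The paralogues BRF1 and BRF2, alternative TFIIIB subunits for different Pol III promoter types, kept their order in the 4 libraries. BRF1 was at 2.24, 2.06, 2.05 and 2.08 FPKM and BRF2 at 3.91, 3.99, 3.84 and 4.07 FPKM. Their ratio was between 0.511 and 0.573 in the 4 libraries, with overlapping intervals, and 59.0% of BRF2's exonic bases are shared with ADGRA2.

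**Figure D3:**
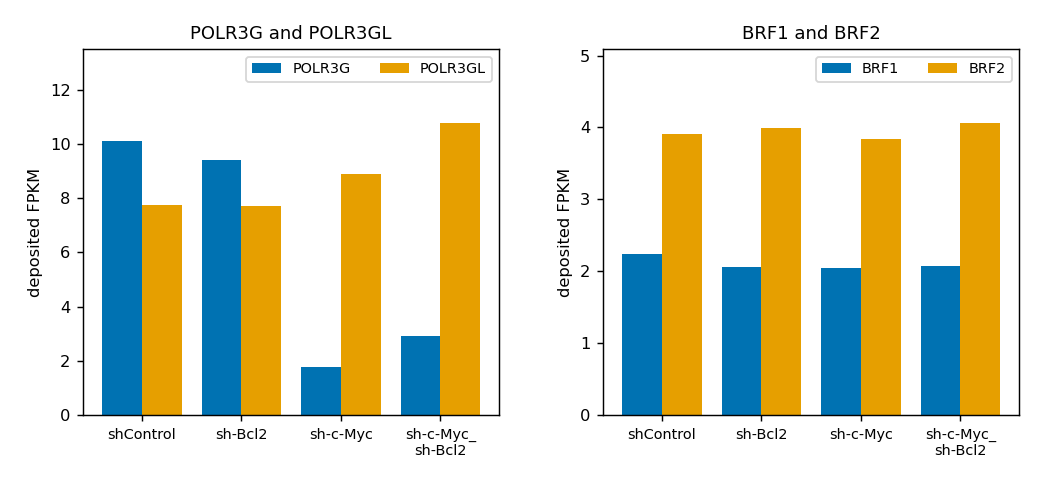
Deposited FPKM of the paralogue pairs POLR3G and POLR3GL (left) and BRF1 and BRF2 (right), 1 bar per gene and library, with no replicate. POLR3G is above POLR3GL in shControl and sh-Bcl2 and below it in both c-Myc hairpin libraries, while BRF1 is below BRF2 in all 4.

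POLR3K, the small subunit for RNA cleavage and termination by Pol III, was at 20.7, 25.5, 6.67 and 11.8 CPM in the same library order. It was 3.10-fold lower (2.48 to 3.93) in sh-c-Myc than in shControl. POLR3E, a termination and initiation subunit that pairs with POLR3D, was at 89.4, 68.5, 32.3 and 35.4 CPM and 2.77-fold lower (2.50 to 3.08). POLR3D itself was at 74.0, 60.8, 39.0 and 44.2 CPM, 1.90-fold lower (1.71 to 2.10), just under the threshold.

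The large catalytic subunits of Pol III differed from each other. POLR3B was at 38.8, 37.3, 16.8 and 24.2 CPM, 2.30-fold lower (1.99 to 2.68) in sh-c-Myc. POLR3A was at 102, 124, 66.8 and 84.7 CPM, a log2 ratio of -0.60 (-0.72 to -0.49). Set against its Pol I counterpart per length, the POLR1A to POLR3A ratio was 1.18 in shControl and 0.925 in sh-Bcl2, against 0.791 with the c-Myc hairpin alone and 0.815 with both hairpins. The POLR1B to POLR3B ratio was 2.44, 2.85, 2.46 and 2.24 in that order.

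POLR3C and POLR3F, the partners of POLR3G in the trimer, and the stalk subunit CRCP had intervals that spanned 1 in sh-c-Myc. Their log2 ratios were -0.07 for POLR3C, -0.08 for POLR3F and -0.16 for CRCP. POLR3F was at 7.31, 8.52, 6.93 and 9.98 CPM, so its interval was wide (-0.48 to 0.33).

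Of the Pol III factors, GTF3C6 alone was called. GTF3C6, the smallest TFIIIC subunit, was at 75.0 CPM in shControl and 71.3 in sh-Bcl2, against 32.1 with the c-Myc hairpin alone and 50.025 with both hairpins, 2.33-fold lower (2.10 to 2.60) in sh-c-Myc. The other TFIIIC subunits had log2 ratios from -0.93 in GTF3C5 to -0.20 in GTF3C1, with all 6 intervals below 1. GTF3C4 was at 66.4, 74.2, 40.8 and 56.5 CPM and GTF3C5 at 69.5, 54.0, 36.5 and 46.4 CPM, while GTF3C2, which shares 25.3% of its exonic bases, and GTF3C3 had log2 ratios of -0.45 and -0.25. GTF3A encodes TFIIIA, the factor that recognises the 5S genes, and had the highest FPKM of the members in shControl (89.9). It was at 284, 337, 161 and 219 CPM, 1.76-fold lower (1.67 to 1.85) in sh-c-Myc. BDP1, the TFIIIB subunit common to all Pol III promoter types, was at 116, 125, 79.98 and 103 CPM, a log2 ratio of -0.53.

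MAF1, which binds Pol III and holds it inactive, had another pattern. It was at 114 CPM in shControl and 75.4 in sh-Bcl2, against 94.7 with the c-Myc hairpin alone and 79.7 with both hairpins. The lowest level was in sh-Bcl2, 1.52-fold below shControl (1.41 to 1.64), and sh-c-Myc was 1.21-fold below it (1.13 to 1.30). Of the other members only POLR3GL and TAF1C were lowest in sh-Bcl2.

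The c-Myc hairpin was present in 2 libraries and absent from 2, which allows a test over the 2 by 2 layout with edgeR's quasi-likelihood method. In that fit 19 of 35 members fell with the c-Myc hairpin and 0 rose at an adjusted p under 0.05 (Benjamini-Hochberg over 12885 genes). Among all genes in the fit 14.2% fell and 9.2% rose. MYC itself did not pass for the c-Myc hairpin in that edgeR fit (log2 effect -0.46, adjusted p 0.0792). With 1 residual degree of freedom, the fit cannot tell the non-additive part from the spread among libraries. Its estimate of spread is mostly borrowed across genes (11.1 prior degrees of freedom), so the adjusted p-values do not rest on replicates of a group. With total-count scaling the split over all genes went from 1835 lower and 1186 higher to 1774 lower and 2291 higher, with 18 members lower and 0 higher. The genes that fell were all 11 called in sh-c-Myc, with TWISTNB, RRN3, TAF1D, POLR3A, POLR3D, GTF3A, GTF3C4 and GTF3C5. The lowest adjusted p was that of POLR3G (3.35e-04, log2 effect -2.21), and GTF3C5 passed at 0.0499998. With DESeq2 15 of the 19 passed, and RRN3, POLR3A, GTF3C4 and GTF3C5 did not (adjusted p 0.116, 0.0561, 0.112 and 0.137).

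The same hairpin was compared in the Bcl-2 hairpin background, double knockdown against sh-Bcl2, which shares no library with the comparison of sh-c-Myc and shControl. In it 3 members were called lower (CD3EAP, POLR3G and POLR3K) and 0 higher, against 3.61% and 5.19% of all genes. The members' median log2 ratio was -0.33. POLR3G was 3.38-fold lower (2.86 to 4.03), CD3EAP 3.42-fold (2.50 to 4.80) and POLR3K 2.16-fold (1.81 to 2.60). Of the 35 members 29 had a ratio below 1 in both backgrounds, against 39.5% of all genes, and 24 had both intervals below 1, against 25.03%. Across the 35 genes the log2 ratios in the 2 backgrounds had Pearson's r of 0.94 and Spearman's rho of 0.90, against r of 0.60 over all genes. These describe genes within 4 libraries, and genes are not replicates. All genes include more genes with few reads, so the r values are not from sets of like depth.

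For 28 members both libraries with the c-Myc hairpin lay below both libraries without it, against 32.8% of all genes. The other 7 were TAF1B, TAF1C, POLR3C, POLR3F, POLR3GL, GTF3C3 and MAF1.

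With the Bcl-2 hairpin present most drops were smaller. Of 33 members with a ratio below 1 in sh-c-Myc, 32 had a smaller drop in the double knockdown against sh-Bcl2, as did 81.9% of all genes with a ratio below 1 in sh-c-Myc. Picking genes by a low ratio in sh-c-Myc itself favours a smaller drop in the other comparison. MYC RNA itself was 1.21-fold lower (1.16 to 1.26) in the double knockdown than in sh-Bcl2 and 1.56-fold lower (1.499 to 1.62) in sh-c-Myc than in shControl, a departure of 0.37 (0.29 to 0.45) by the measure given next. Its part in the members' ratios was not tested. The departure from additivity, the log2 ratio of the double knockdown to shControl minus those of both single knockdowns, was positive in 34 of 35 members, with a median of 0.32. Over all genes 54.4% had a positive departure and the median was 0.05. The interval lay above 0 for 24 members, against 29.1% of all genes, and below 0 for 0 members. With total-count scaling the median departure was 0.20 over the members and -0.07 over all genes, and 17 members had an interval above 0. POLR3G had the largest departure (0.93, 0.54 to 1.31), then UBTF (0.80, 0.70 to 0.91), and CRCP was the 1 member below 0 (-0.04). This measure uses the same sh-c-Myc and shControl libraries as the ratios given first, so the 2 are not independent, and with 1 library per group the departure was not tested.

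Against shControl the double knockdown had 4 members called lower (POLR1E, CD3EAP, POLR3E and POLR3G) and 0 higher, with 5.95% and 7.11% of all genes called. The median over members was -0.41. Against sh-c-Myc, 1 member, CD3EAP, was called higher in the double knockdown and 0 lower, with 1.65% of all genes called higher and 4.85% lower. CD3EAP was 2.19-fold higher (1.33 to 3.79), from 23 and 51 reads. The members' median was 0.35, against 0.03 for all genes. Intervals lay above 1 for 25 members and below 1 for 2 (MAF1 and TAF1C), against 31.4% and 22.7% of all genes. Of the 35 members 29 were lowest in sh-c-Myc.

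Genes of cell division and of monocytes also differed between these libraries. Over 8 division genes (MKI67, TOP2A, PCNA, MCM2, MCM4, CCNB1, CDK1 and BUB1) the summed level was 3322 CPM in shControl and 3494 in sh-Bcl2, against 1386 with the c-Myc hairpin alone and 2476 with both hairpins. In sh-c-Myc 6 of these 8 were called lower. The 12 monocyte and macrophage genes were CD14, LYZ, CSF1R, S100A8, S100A9, FCGR1A, CD163, MPEG1, ITGAM, CD68, FCN1 and VCAN. Their sums were 246, 366, 886 and 942 CPM, and 6 of the 9 that met the filter were called higher in sh-c-Myc. FCGR1A, CD14 and CD163 were not called, at log2 ratios of 0.30, 0.62 and -0.94. The intervals of CD14 and CD163 spanned a ratio of 1, with 11 and 16 reads in shControl. CD68, FCN1 and VCAN did not meet the filter. CSF1R was at 18.95 CPM in shControl and 179 CPM in sh-c-Myc, while VCAN had no count in shControl, sh-Bcl2 and sh-c-Myc. Over 5 granule genes (MPO, ELANE, PRTN3, AZU1 and CTSG) the sums were 2284, 1512, 4531 and 4525 CPM. In sh-c-Myc 3 of them were called higher and 0 lower. AZU1 and CTSG were not called there, at log2 ratios of 0.86 and -0.34. CTSG was called lower in sh-Bcl2 than in shControl (log2 ratio -1.25). AZU1 had the largest level of the list in each library, 1387 CPM in shControl and 2523 CPM in sh-c-Myc. Over 6 genes of MOLM-13 and immature myeloid cells the sums were 1030.5, 1209, 1480 and 1453 CPM, with KIT called higher in sh-c-Myc (1.77 CPM in shControl and 9.49 in sh-c-Myc) and 0 called lower. The other log2 ratios in sh-c-Myc were 0.65 for FLT3, 0.45 for CD33, 0.49 for MYB, 0.07 for HOXA9 and -0.49 for MEIS1. B cell genes summed to at most 5.26 CPM and erythroid genes to at most 0.595 CPM in any library. The part of division rate or maturation state in the members' ratios was not tested.

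No member was called with the Bcl-2 hairpin alone. POLR2L, a subunit of both enzymes and of Pol II that is outside the member list, was called lower, as given below. Against shControl 0 members were higher and 0 lower in sh-Bcl2, with 2.46% and 2.16% of all genes called. The median log2 ratio was -0.03. Counting intervals lay below 1 for 11 members and above 1 for 9, against 23% and 21.8% of all genes. In the edgeR fit 0 members passed for the Bcl-2 hairpin, with 0.0155% of all genes rising and 0.0233% falling, and the lowest adjusted p among members was 0.636. At an unadjusted p under 0.05 there were 3 higher (CD3EAP, POLR3C and POLR3K) and 1 lower (MAF1), against 3.68% and 3.83% of all genes. DESeq2 and limma-voom also called 0.

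**Figure D4:**
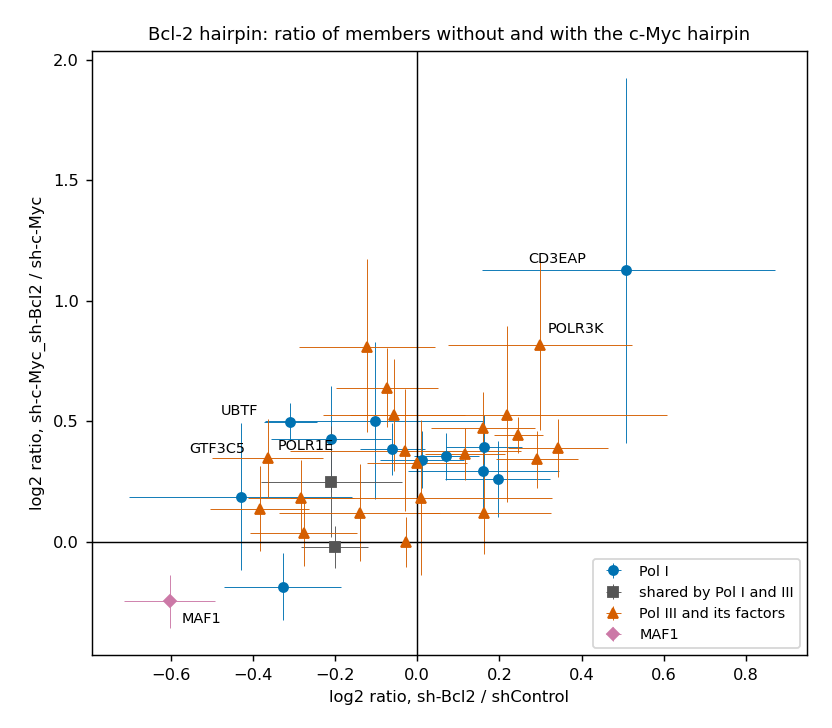
Log2 ratio of the 35 genes for the Bcl-2 hairpin without the c-Myc hairpin (horizontal, sh-Bcl2 over shControl) and with it (vertical, double knockdown over sh-c-Myc). Bars are 95% counting intervals. Most points lie above 0 on the vertical axis and on both sides of 0 on the horizontal axis, and MAF1 lies below 0 on both.

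Across members the Bcl-2 hairpin's log2 ratios in the 2 backgrounds, which share no library, had Pearson's r of 0.58 and Spearman's rho of 0.45, against 0.05 and 0.10 over all genes. The sets were again not matched in read depth. Members with a higher GC content had lower Bcl-2 hairpin ratios in both backgrounds (Spearman's rho -0.44 and -0.43 across the 35 genes), while for the c-Myc hairpin the value was 0.07. Over all genes these values were -0.28, -0.25 and 0.01. With a trend in GC content and gene length removed across all genes, the members' median Bcl-2 hairpin log2 ratios were -0.03 and 0.32. These medians do not show whether the correlation between backgrounds remained, and the part of GC content in it was not tested.

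The 7 members with CACGTG near the start, printed above, had a median log2 ratio of -0.70 in sh-c-Myc, with 3 called lower (CD3EAP, POLR3E and GTF3C6). The 22 matched members without it had a median of -0.74, with 6 called lower. The 6 members with no entry matched, among them POLR3G, had a median of -0.60, with 2 called lower. Of genes with the word, CD3EAP was 5.25-fold lower and POLR3C had a ratio near 1. POLR1A and POLR1B do not carry it in this window and were called lower. A link between the word and the ratio was not tested.

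Genes around the 2 enzymes were counted in the same way in sh-c-Myc. Of 5 subunits common to Pol I, Pol II and Pol III, 3 were called lower and the median log2 ratio was -1.24. POLR2F was at 29.5, 16.3, 10.1 and 9.28 CPM and POLR2L at 23.1, 11.03, 8.27 and 9.60 CPM, with sh-Bcl2 below shControl for both. In sh-Bcl2 against shControl POLR2L was called lower (2.09-fold, 1.73 to 2.54) and POLR2F was not (1.81-fold, 1.54 to 2.13). POLR2L shares 22.5% of its exonic bases with CD151. Of the 5 common subunits, 4 had intervals below 1 in that comparison and 1 spanned 1, with a median log2 ratio of -0.45. POLR2H was at 65.4, 59.4, 27.6 and 34.2 CPM. Of 6 Pol II subunits that met the filter 1 was called lower (POLR2D), with a median of -0.42, and POLR2A, the largest Pol II subunit, had a log2 ratio of 0.03. Of 7 Pol II general factors 0 were called, with a median of -0.38.

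Pol I partners, a mixed list of genes whose proteins act with Pol I or on chromatin, had 5 of 10 called lower and a median of -1.16. Their intervals lay below 1 for 7 genes, above 1 for 2 and spanned 1 for 1. MYBBP1A was at 239, 206, 48.4 and 72.2 CPM, and TCOF1 at 159, 133, 35.5 and 52.8 CPM. NOLC1 and DDX21 had log2 ratios of -1.93 and -1.70 in sh-c-Myc. The 2 with intervals above 1 were BAZ2A, of the complex that silences ribosomal DNA, at a log2 ratio of 0.64, and ERCC6 at 0.42. Of 10 Pol III partners 0 were called, with a median of -0.24, and the RNA chaperone SSB had the lowest ratio (-0.96). The RNAs that the 2 enzymes make were not analysed here.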

How the data were processed

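RNA was measured by sequencing in 4 MOLM-13 libraries, 1 per group, from 1.5 µg of RNA with a NEBNext Ultra kit per the labels' protocols. Reads were aligned to GRCh38 with HISAT2 (no version given) and counted per gene with HTSeq 0.13.5, per the submitters' processing notes. This leaves the annotation release and strand setting, both not given in the sources used here. Both kinds of value were in 1 table, which held deposited read counts and deposited FPKM values, which the authors scaled to gene length and library size. Dividing counts by FPKM gave the GENCODE 29 exonic length for 35 of 35 members. No column was left without a sample.

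Counts were scaled by TMM (factors 0.950, 0.965, 1.08 and 1.01 for shControl, sh-Bcl2, sh-c-Myc and the double knockdown), and ratios use a prior of 0.5 with exact conditional binomial 95% intervals. Intervals cover counting error only, and reads without molecular identifiers are not independent molecules. At 14421558 to 15691129 counted reads a library, 3 counts correspond to 0.192 to 0.213 CPM. A call needs a 2-fold ratio, an interval excluding 1 and 1 CPM or more in any library (13726 genes). The 2 by 2 layout was fitted with edgeR 4.0.16 on the 12885 genes that had 1 CPM or more in 2 libraries or more (common dispersion 0.0221), with DESeq2 1.42.0 and limma 3.58.1 as alternatives. Other scalings, filters, thresholds, priors, FPKM and removal of a GC content and length trend were also tried. Methods were tested on simulated data.

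The members, the gene lists and the tests were chosen with earlier results of these data known. All 35 members are accounted for, and library values are given for those called in any comparison or past the threshold in the fit, for MAF1 and both paralogue pairs, and for the member of each role with the largest conservative fold (the interval end nearest to 1). From other lists values are given for up to 4 genes with the largest conservative fold. Values of the remaining members and of BAZ2A, ERCC6, POLR2A, VCAN, CD14, FCGR1A, CD163, AZU1, CTSG and the 6 MOLM-13 genes are given outside that rule.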

Additional observations from a re-analysis of the deposited data

Results flagged for a closer look

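In 5 members the Bcl-2 hairpin ratio had opposite directions in the 2 backgrounds, with both counting intervals excluding 1. They were lower in sh-Bcl2 than in shControl and higher in the double knockdown than in sh-c-Myc. The difference between backgrounds was not tested, because each background has 1 library per arm. UBTF had log2 ratios of -0.31 and 0.50, a difference of 0.80. GTF3C5 had -0.36 and 0.35, a difference of 0.71, and POLR1E had -0.21 and 0.43, a difference of 0.63. These 3 kept the pattern under the 3 other scalings. POLR3D (-0.28 and 0.18, a difference of 0.46) and POLR1C (-0.21 and 0.25, a difference of 0.46) kept it under 1 of them. Such opposite directions were seen in 5 of 35 members (14.3%) and in 1441 of 13726 genes (10.5%).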

How the results depend on the processing

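No paired analysis was possible because the groups share only 1 replicate number, and with 1 library per group no replicate could be left out. In sh-c-Myc against shControl the members' median log2 ratio was -0.55 with total-count scaling, -0.55 with upper-quartile factors (-0.552516 before rounding) and -0.47 with deposited FPKM + 1. The median of all genes was 0.17 with total-count scaling and with upper-quartile factors and 0.11 with FPKM + 1. The number of members called lower there was 21 at a 1.5-fold threshold (2802 of 13726 genes) and 6 with FPKM + 1 (553 genes). In the double knockdown against shControl it was 11 at 1.5-fold (2030 genes) and 2 with FPKM + 1 (256 genes). Against sh-Bcl2 it was 11 at 1.5-fold (1444 genes). Against sh-c-Myc the number called higher was 4 at 1.5-fold (813 genes) and 0 with FPKM + 1 (32 genes). In sh-Bcl2 against shControl 1 member, MAF1, was called lower at 1.5-fold (768 genes). Of 19 member calls over all comparisons, total-count scaling lost 3, upper-quartile factors 2 (POLR1C and UBTF) and FPKM + 1 lost 9. DESeq2 size factors, no filter, a mean of at least 50 counts, a prior of 2 and removal of the GC content and length trend lost 0, and the trend removal added POLR3D. In the 2 by 2 fit total-count scaling left RRN3 at an adjusted p of 0.0534. No called value changed sign under any alternative run. Members under 10 CPM in shControl, CD3EAP and POLR3F, are limited by depth.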
